A study of Mus musculus with 11 samples.

Results

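The 10 genes described here encode RNA-binding proteins that set neuronal splicing and RNA stability: the polypyrimidine tract proteins Ptbp1 and Ptbp2, the microexon regulator Srrm4, Nova1 and Nova2, Rbfox1, Rbfox2 and Rbfox3, and the Hu proteins Elavl2 and Elavl4. They were listed by name with earlier results of these data known, and make up 10 of the 77179 gene rows of the expression table and 10 of the 19008 genes that reached 1 TPM in at least 2 libraries. TPM is a transcript level scaled to transcript length and to the library's total. The lowest value of any of the 10 genes in any library was 5.26 TPM, so all 10 passed that filter in every group.

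RNA came from cortex and hippocampus, processed as 1 sample, of NEX-RiboTag mice, in which Cre expressed from the Neurod6 (NEX) gene of excitatory forebrain neurons turns on an eGFP-tagged ribosomal protein, Rpl10a. Pull-down (IP) of tagged ribosomes with beads against GFP gave 3 libraries from NEX-Cre;Rpl10aeGFP/eGFP mice at each of 3 ages, postnatal day 7 (P7), 14 (P14) or 21 (P21). Whole-tissue RNA (input) was sequenced at P7 in 2 libraries, replicate 1 of that same genotype and replicate 2 from Rpl10aeGFP/eGFP mice without Cre. All 11 libraries thus carried the eGFP-Rpl10a allele, the Cre mice were on a C57BL/6J background, and the sources used here do not give the number of animals behind a library. The labels call the IP libraries biological replicates. Whether the input libraries differ through genotype or through the mouse cannot be told apart, and P14 and P21 had no input library.

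In textbook accounts, Ptbp1 holds neuronal exons out of mRNA in non-neuronal cells, and its loss on differentiation lets the related Ptbp2 appear, which is itself lowered as neurons mature. Srrm4, Nova and Rbfox proteins then drive neuronal exon choices, each through its own short RNA motif, and Hu proteins bind AU-rich and U-rich elements to stabilise transcripts and adjust their splicing. These proteins act on pre-mRNA in the nucleus or on mRNA in the cytoplasm, whereas the libraries measured the ribosome-bound mRNA that encodes them. The table holds 1 value per gene, so exon inclusion and isoforms of the regulators, such as the switch of a Ptbp2 exon that leads to decay of its transcript, were not analysed here.

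By level, Rbfox3 stood highest of the 10 in every group, at percentiles 95.1 to 96.4 of tested genes. Srrm4, Ptbp1 and Nova1 held the 3 lowest ranks in the IP groups, at percentiles 49.7 to 61.3. Over the 3 IP ages, 3 genes rose (Nova1, Rbfox1 and Rbfox3) and 6 fell (Nova2, Rbfox2, Ptbp1, Ptbp2, Elavl2 and Elavl4) between P7 and P21. That makes 9 of 10 genes called, where 59.9% of all tested genes were called, 27.3% higher and 32.6% lower. The call was adjusted p below 0.05 in limma, a linear model fitted to all tested genes at once on log2(TPM + 1). This scale understates the change of genes with low values, and all log2 changes below are on it, with standard errors (SE) from the fit. The same 9 genes were called in each of the 21 alternative ways of processing, with the same direction. Their libraries at P21 did not overlap those at P7 for these 9 genes, as for 63.9% of tested genes. The median change of the 10 was -0.38, beside -0.04 for all tested genes.

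**Figure D1:**
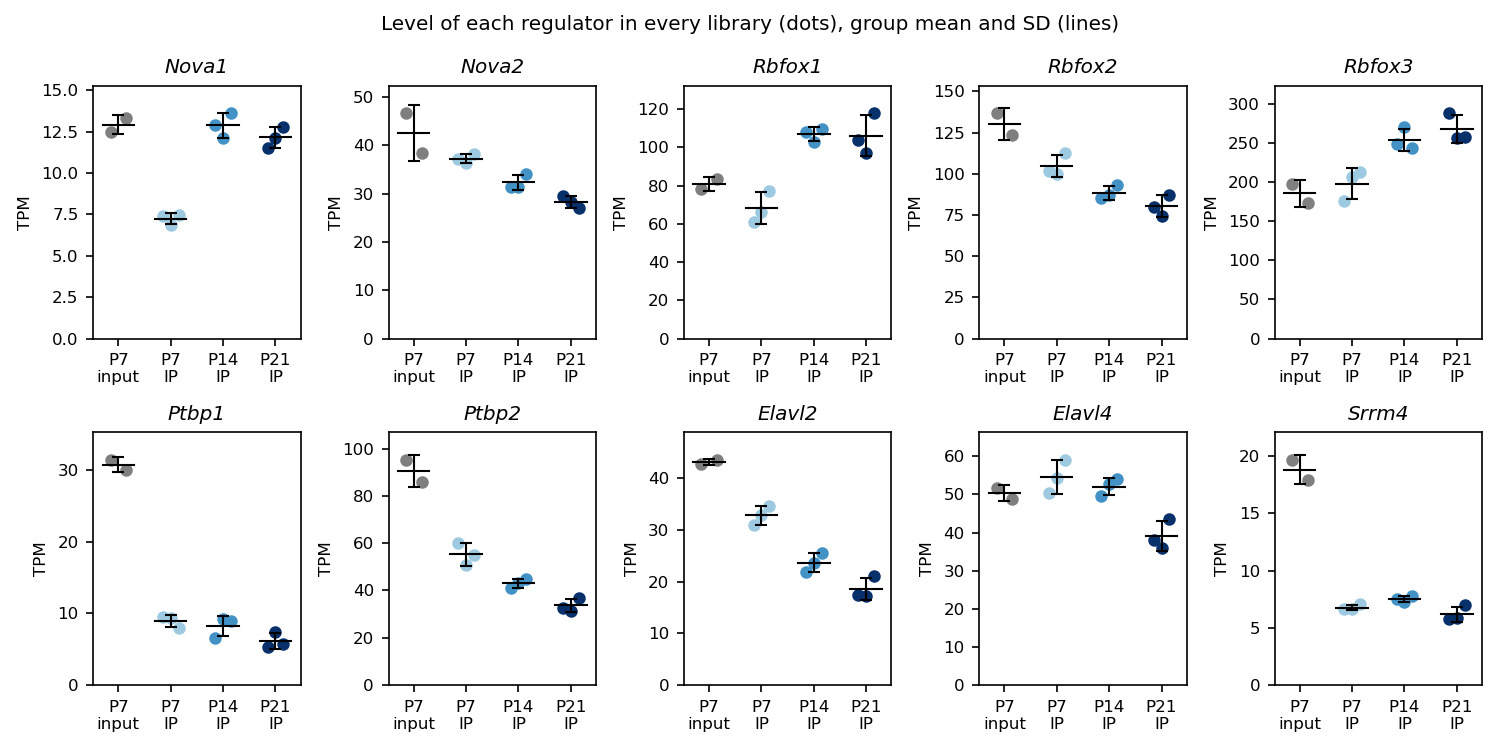
Level in TPM (vertical axes, from 0) of the 10 genes in each library. Dots are libraries and lines are the mean and SD of P7 input (n = 2) and P7, P14 and P21 IP (n = 3 each). Ptbp1 and Srrm4 drop from input to P7 IP, Nova1 and Rbfox1 step up between P7 and P14 IP, and Ptbp2 and Elavl2 fall at both steps.

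Ptbp1 (ENSMUSG00000006498), the repressor of neuronal exons, was measured at 31.4 and 29.9 TPM in the input libraries. The P7 IP libraries held 9.45, 9.40 and 8.01 TPM, the P14 IP libraries 6.57, 9.20 and 8.90 TPM, and the P21 IP libraries 5.26, 7.45 and 5.78 TPM. Every IP library thus lay far below both inputs, P7 and P14 overlapped, and P21 lay below P7 with no overlap. At P7 the mean of 8.95 ± 0.818 TPM (SD, n = 3) in IP was 3.43-fold lower than the 30.7 ± 1.05 TPM (SD, n = 2) of input, a log2 difference of -1.67 ± 0.15 SE (limma adjusted p = 4.05e-06). Between P7 and P14 the difference of -0.12 ± 0.14 SE did not pass the test (adjusted p = 0.502), nor did that of -0.36 ± 0.14 SE between P14 and P21 (adjusted p = 0.072). Over both weeks Ptbp1 fell by 0.48 ± 0.14 SE on the log2 scale (limma adjusted p = 0.0105).

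Ptbp2 (ENSMUSG00000028134), the neuronal counterpart that takes over from Ptbp1 in young neurons, was more abundant than Ptbp1 in every library. Input held 95.4 and 85.9 TPM of it. The IP libraries held 60.1, 50.6 and 55.0 TPM at P7, 41.1, 43.0 and 44.8 TPM at P14, and 32.8, 31.5 and 36.9 TPM at P21. The 4 groups did not overlap anywhere and fell in the order input, P7, P14, P21. The IP mean at P7 lay below input (log2 difference -0.71 ± 0.09 SE, limma adjusted p = 3.97e-05). Ptbp2 then fell in both weeks, by 0.35 ± 0.08 SE from P7 to P14 (adjusted p = 0.00369) and by 0.34 ± 0.08 SE from P14 to P21 (adjusted p = 0.0093).

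The pair's balance was followed as log2 of Ptbp2 over Ptbp1 within a library, with 1 TPM added to each. It was 1.53 ± 0.058 (SD, n = 2) in input and 2.50 ± 0.169 (SD, n = 3) in P7 IP, with no overlap. An exact two-sided permutation test of 3 against 2 libraries gave p = 0.1, the smallest p this design allows. Over the IP ages the ratio was 2.50 ± 0.169, 2.27 ± 0.189 and 2.29 ± 0.297 (SD, n = 3 each), and an exact permutation test of the 3 ages gave p = 0.439. As a share of the summed TPM of Ptbp1, Ptbp2 and the third paralog Ptbp3, Ptbp1 made up 23.7 to 24.5% in input, 12.1 to 15% in P7 IP and 12.6 to 18.0% in P21 IP. The sum of the 3 paralogs itself went from 62.6 to 72.0 TPM in P7 IP down to 40.9 to 46.0 TPM in P21 IP, with no overlap.

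Srrm4 (ENSMUSG00000063919), which promotes inclusion of neuronal microexons, was low in the IP libraries at all ages. Input held 19.7 and 17.9 TPM. IP held 6.62, 6.63 and 7.07 TPM at P7, 7.56, 7.28 and 7.76 TPM at P14, and 5.77, 5.88 and 6.95 TPM at P21. All 9 IP libraries lay below both inputs, and P7 and P21 overlapped. The P7 mean was 2.78-fold lower in IP than in input (log2 difference -1.35 ± 0.09 SE, limma adjusted p = 4.03e-07). From P14 to P21 the gene was lower by a log2 difference of -0.25 ± 0.08 SE (limma adjusted p = 0.0383), a call lost in 10 of 21 alternatives, with adjusted p up to 0.139: median-of-ratios scaling, quantile normalisation, no filter, only the groups compared, and without P7 IP library 2, any 1 of the P14 libraries or P21 library 1 or 2. Its difference between P21 and P7 was -0.11 ± 0.08 SE (adjusted p = 0.238).

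The promoters of these 3 genes are shown to place their sequence beside the values. The 3 are among the 7 of 10 genes called lower in IP than in input at P7, so that trait is not particular to them. They are the 250 bases before the RefSeq gene start in build GRCm38.p6, 5′ to 3′ on the gene's strand: Ptbp1 at chr10:79854182-79854431 (plus strand), Ptbp2 at chr3:119783389-119783638 (minus) and Srrm4 at chr5:116591818-116592067 (minus). Capitals mark CAGATG, an E-box form bound by basic helix-loop-helix factors such as the NeuroD family to which the Cre driver gene belongs, and GGGCGG, the GC box bound by Sp factors, both searched on either strand with overlapping matches counted.
Ptbp1: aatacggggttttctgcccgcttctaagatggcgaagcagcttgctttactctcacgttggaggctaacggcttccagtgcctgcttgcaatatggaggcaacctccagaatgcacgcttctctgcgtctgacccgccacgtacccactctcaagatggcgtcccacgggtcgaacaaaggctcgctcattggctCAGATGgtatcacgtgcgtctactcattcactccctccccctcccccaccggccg
Ptbp2: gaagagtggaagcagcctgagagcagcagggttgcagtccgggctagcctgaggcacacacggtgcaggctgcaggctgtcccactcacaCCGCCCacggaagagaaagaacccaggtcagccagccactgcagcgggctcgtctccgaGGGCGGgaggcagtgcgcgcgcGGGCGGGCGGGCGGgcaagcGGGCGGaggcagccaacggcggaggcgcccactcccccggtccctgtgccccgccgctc
Srrm4: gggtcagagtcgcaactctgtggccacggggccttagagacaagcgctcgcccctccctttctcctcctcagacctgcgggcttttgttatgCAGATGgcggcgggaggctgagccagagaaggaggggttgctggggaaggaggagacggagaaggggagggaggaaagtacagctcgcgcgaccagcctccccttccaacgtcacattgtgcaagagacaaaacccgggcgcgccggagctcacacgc
Ptbp1 held 1 CAGATG at bases 55 to 50 before the start and Srrm4 held 1 at bases 158 to 153. Ptbp2 held 6 GGGCGG matches between bases 160 and 54 before the start, some of them overlapping in a row. Of 32851 RefSeq promoter windows of this length, 14.4% held CAGATG and 32.7% held GGGCGG. A promoter window was found for 9 of the 10 genes. CAGATG was in a window of 3 of them (Ptbp1, Srrm4 and Elavl4) and GGGCGG in a window of 3 (Nova2, Ptbp2 and Elavl2). The 9 genes had 18 windows, with several for some genes. These counts of genes therefore cannot be set against the shares of windows. Nova1, also called lower in IP than in input at P7, held neither motif. A match is a description of letters and not a measured binding site.

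Nova1 (ENSMUSG00000021047), which binds clusters of a short RNA motif beside alternative exons, was the gene that rose most of the 10 between P7 and P14. Input held 12.5 and 13.3 TPM. IP held 7.40, 6.88 and 7.45 TPM at P7, 12.9, 12.1 and 13.6 TPM at P14 and 11.5, 12.1 and 12.8 TPM at P21. P7 IP was thus the low group, and the other 3 groups overlapped. The P7 IP mean of 7.24 ± 0.316 TPM (SD, n = 3) lay below the input mean of 12.9 ± 0.591 TPM (SD, n = 2) by a log2 difference of -0.76 ± 0.08 SE (limma adjusted p = 8.3e-06). From P7 to P14 Nova1 rose by 0.75 ± 0.07 SE (limma adjusted p = 8.26e-06), and the difference from P14 to P21 was -0.08 ± 0.07 SE (adjusted p = 0.442). The second step was smaller than the first by a log2 difference of -0.83 ± 0.12 SE (limma adjusted p = 0.00112).

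Nova2 (ENSMUSG00000030411), the paralog that predominates in cortex, moved the other way. It was measured at 46.7 and 38.4 TPM in input, 37.1, 36.3 and 38.2 TPM in P7 IP, 31.4, 31.5 and 34.0 TPM in P14 IP and 29.6, 28.3 and 27.0 TPM in P21 IP. The 3 ages did not overlap. Between P7 and P21 Nova2 fell by 0.38 ± 0.07 SE on the log2 scale (limma adjusted p = 0.000859). The step from P7 to P14 was -0.20 ± 0.07 SE (adjusted p = 0.0411) and lost its call in 8 of 21 alternatives, with adjusted p up to 0.113: no filter, untrended moderation, and without any 1 of the P7 IP libraries, P14 library 1 or 2 or P21 library 2. The step from P14 to P21 was -0.19 ± 0.07 SE and did not pass the test (limma adjusted p = 0.0806). At P7 the IP and input levels differed by -0.18 ± 0.08 SE (adjusted p = 0.0645).

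The summed level of the 2 genes was 43.1 to 45.7 TPM in P7 IP, 43.6 to 47.6 TPM in P14 IP and 39.8 to 41.1 TPM in P21 IP. Nova1 made up 15.9 to 16.6% of that sum at P7, 27.8 to 29.1% at P14 and 28.1 to 32.1% at P21. The log2 ratio of Nova1 to Nova2 went from -2.21 ± 0.030 at P7 to -1.26 ± 0.042 at P14 and -1.16 ± 0.132 at P21 (SD, n = 3 each). An exact permutation test over the 3 ages gave p = 0.0107, or 0.0161 adjusted over the 6 paralog ratios tested. In input the ratio of -1.64 ± 0.255 (SD, n = 2) lay between the P7 and P14 IP values.

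**Figure D2:**
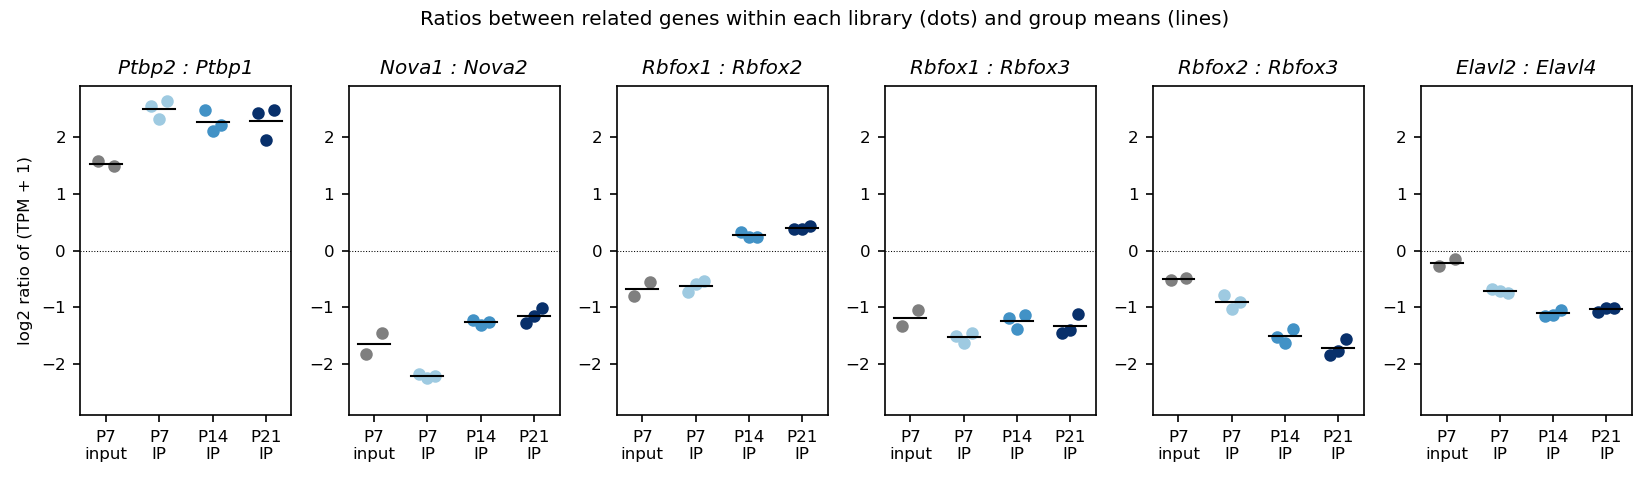
Log2 ratio of paralogs within each library (vertical axis, 1 TPM added to each gene) for 6 pairs in P7 input (n = 2) and P7, P14 and P21 IP (n = 3 each). Dots are libraries and lines are group means. Nova1:Nova2 and Rbfox1:Rbfox2 climb by about 1 log2 unit between P7 and P21 IP, while Ptbp2:Ptbp1 differs between input and IP and overlaps across the ages.

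The Rbfox proteins share a binding motif, UGCAUG, and differ in when and where they are made. Rbfox1 (ENSMUSG00000008658), linked to neuronal excitability, was measured at 78.2 and 83.5 TPM in input, 60.9, 66.2 and 77.2 TPM in P7 IP, 107.9, 102.8 and 109.9 TPM in P14 IP and 103.8, 96.9 and 118.0 TPM in P21 IP. P14 and P21 overlapped, and both lay above P7 and above input. Rbfox1 rose by 0.65 ± 0.09 SE from P7 to P14 (limma adjusted p = 0.000173), and its difference from P14 to P21 was -0.01 ± 0.09 SE (adjusted p = 0.942). The second step was smaller than the first by -0.66 ± 0.16 SE (limma adjusted p = 0.0128), and without P14 library 3 the adjusted p of that difference reached the threshold of 0.05.

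Rbfox2 (ENSMUSG00000033565), the family member that is also widely made outside neurons, fell. Input held 136.9 and 123.3 TPM. IP held 101.8, 100 and 112.7 TPM at P7, 85.4, 86.9 and 93.3 TPM at P14 and 79.6, 74.1 and 87.3 TPM at P21. P7 IP lay below input and above P14, whereas P14 and P21 overlapped. Between P7 and P21 the gene fell by 0.38 ± 0.07 SE (limma adjusted p = 0.00102). The first step alone was -0.24 ± 0.07 SE (adjusted p = 0.0191) and lost its call with no filter, without P7 IP library 3 and without P14 library 1 or 2.

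Rbfox3 (ENSMUSG00000025576), the protein known as the neuronal marker NeuN, rose. It was measured at 197.6 and 173.3 TPM in input, 175.1, 206.0 and 212.7 TPM in P7 IP, 248.2, 270.0 and 243.6 TPM in P14 IP and 288.1, 256.7 and 258.0 TPM in P21 IP. P7 IP overlapped input, and P14 and P21 overlapped each other above both. The rise from P7 to P14 was 0.36 ± 0.08 SE (limma adjusted p = 0.00472) and that from P7 to P21 0.44 ± 0.08 SE (limma adjusted p = 0.00107).

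Within the family the order of Rbfox1 and Rbfox2 changed. Rbfox2 exceeded Rbfox1 in both inputs and in all 3 P7 IP libraries, and Rbfox1 exceeded Rbfox2 in all 6 P14 and P21 libraries. Their log2 ratio went from -0.62 ± 0.101 at P7 to 0.27 ± 0.057 at P14 and 0.40 ± 0.029 at P21 (SD, n = 3 each). An exact permutation test over the ages gave p = 0.00357, the smallest p it can give, or 0.0143 adjusted over the 6 ratios. Rbfox2 dropped from 26.9 to 30.1% of the summed Rbfox TPM at P7 to 16.9 to 18.8% at P21. The ratio of Rbfox2 to Rbfox3 moved from -0.91 ± 0.130 to -1.73 ± 0.152 (SD, n = 3 each, exact permutation p over the ages = 0.00714, adjusted 0.0143). That of Rbfox1 to Rbfox3 was -1.53 ± 0.089 at P7 and -1.33 ± 0.181 at P21 (SD, n = 3 each, exact permutation p over the ages = 0.0821, adjusted 0.0986).

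Elavl2 (ENSMUSG00000008489), also called HuB, a neuronal Hu protein, fell at every step. Input held 42.8 and 43.6 TPM. IP held 30.9, 32.9 and 34.7 TPM at P7, 21.8, 23.5 and 25.6 TPM at P14 and 17.4, 17.2 and 21.0 TPM at P21. The 4 groups did not overlap. Its change of -0.80 ± 0.08 SE from P7 to P21 was the steepest of the 10 genes (limma adjusted p = 1.36e-05). It was -0.46 ± 0.08 SE from P7 to P14 (adjusted p = 0.00113) and -0.34 ± 0.08 SE from P14 to P21 (adjusted p = 0.0137). The second call was lost without P14 library 3 or without P21 library 1 or 2, with adjusted p up to 0.0566.

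Elavl4 (ENSMUSG00000028546), also called HuD, which binds transcripts of neurite growth genes, fell between P14 and P21. It was measured at 51.8 and 48.8 TPM in input, 50.4, 54.5 and 59.2 TPM in P7 IP, 49.6, 52.7 and 53.9 TPM in P14 IP and 38.0, 35.9 and 43.5 TPM in P21 IP. Only P21 lay apart, below the other 3 groups. The difference from P7 to P14 was -0.07 ± 0.08 SE (adjusted p = 0.521), and from P14 to P21 Elavl4 fell by 0.41 ± 0.08 SE (limma adjusted p = 0.00395). The second step minus the first was -0.34 ± 0.14 SE, which did not pass the test (adjusted p = 0.102). The log2 ratio of Elavl2 to Elavl4 was -0.72 ± 0.034 at P7, -1.11 ± 0.054 at P14 and -1.04 ± 0.039 at P21 (SD, n = 3 each, exact permutation p = 0.00714, adjusted 0.0143).

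**Figure D3:**
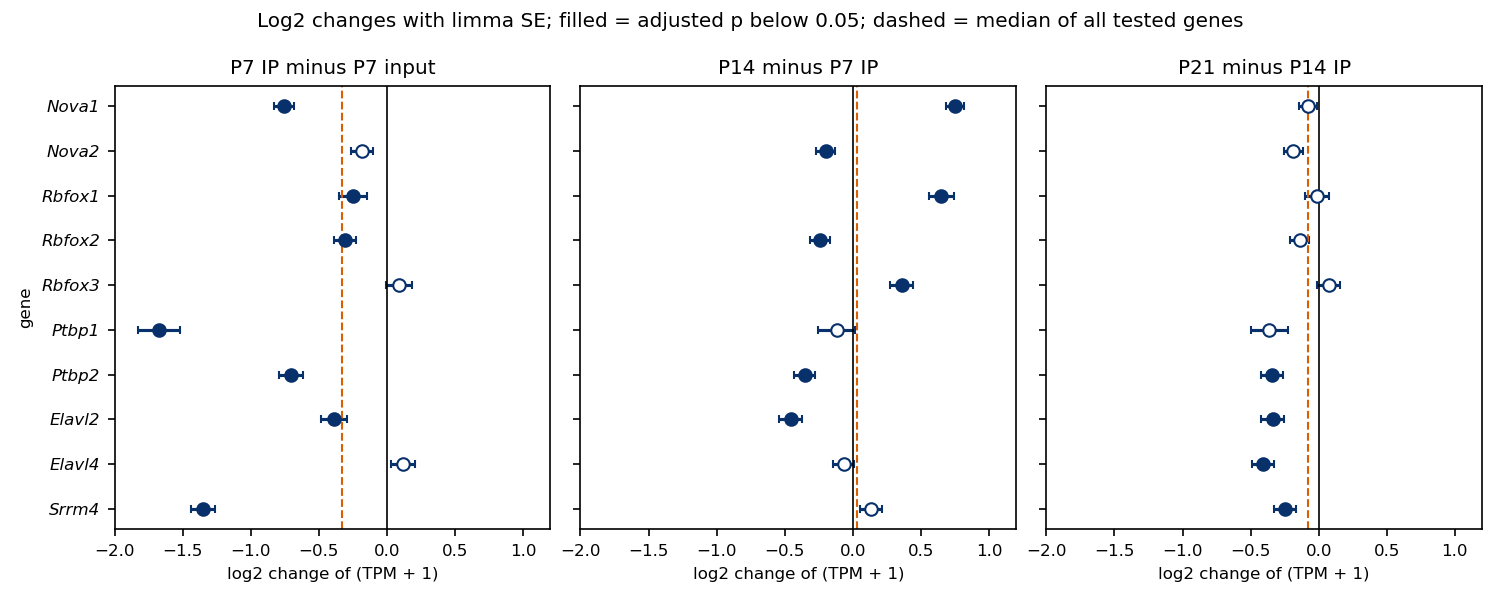
Log2 change with its SE from the limma fit (horizontal axis) of each of the 10 genes in 3 panels, for IP against input at P7 and for the first and second weekly step of the IP libraries. Filled points passed adjusted p below 0.05, and the dashed line is the median of all tested genes. Ptbp1 and Srrm4 lie farthest to the left for IP minus input, and Nova1, Rbfox1 and Rbfox3 lie to the right for P14 minus P7.

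Set side by side, the comparisons share libraries and are not independent. For IP against input at P7, 7 of the 10 genes were called, all lower, where 69.8% of tested genes were called, 18.6% higher and 51.1% lower. Groups did not overlap for 8 of 10 genes and for 78.4% of tested genes. The median change of the 10 was -0.35, beside -0.33 for all tested genes, so as a list they stood close to the background in this comparison.

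The direction of IP against input depended on how libraries were scaled. Median-of-ratios scaling moved the median of all tested genes by 0.39, and called 55.1% of changed genes higher, against 26.7% with TPM as deposited. Quantile normalisation moved it by 0.36 and gave 50.9%. Ptbp1, Srrm4, Nova1 and Ptbp2 stayed lower in IP and called under both, at -1.20, -0.89, -0.31 and -0.22 with median-of-ratios scaling. Rbfox1, Rbfox2, Elavl2 and Nova2 changed sign with that scaling, as given with the limits. Of these, Nova2, Rbfox1 and Rbfox2 were then called higher (limma adjusted p = 0.0108, 0.0383 and 0.0417). The calls of Rbfox1 and Rbfox2 thus reversed in direction. Nova2 was instead called lower, at -0.29, when rescaled without ribosomal protein, haemoglobin and mitochondrially encoded genes (limma adjusted p = 0.00523). Its difference was -0.32 without input library 2. Rbfox3 at 0.58 and Elavl4 at 0.60 were also called higher with median-of-ratios scaling (adjusted p = 0.000348 and 3.1e-05). Elavl4 was called higher with quantile normalisation too, at 0.21 (limma adjusted p = 0.0265). With TPM as deposited the differences of Rbfox3, 0.09 ± 0.09 SE (adjusted p = 0.409), and Elavl4, 0.12 ± 0.09 SE (adjusted p = 0.267), had not passed the test. The calls of Rbfox2 at -0.31 ± 0.08 SE (adjusted p = 0.00627) and Rbfox1 at -0.25 ± 0.10 SE (adjusted p = 0.0478) were lost without input library 1. That of Rbfox1 was lost in 11 of 21 alternatives, with adjusted p up to 0.214, among them no filter, untrended moderation, only the groups compared, and leaving out either input, P7 IP library 1 or 2, any P14 library or P21 library 1.

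From P7 to P14, 3 of the 10 genes rose and 4 fell, where 49.5% of tested genes were called, 26.7% higher and 22.8% lower. Groups did not overlap for 8 of the 10 genes and 57.8% of tested genes. From P14 to P21, 4 genes fell (Ptbp2, Elavl2, Elavl4 and Srrm4) and none rose, where 28.3% were called, 8.53% higher and 19.7% lower. At an unadjusted p below 0.05 the limma fit had 0 of the 10 higher and 6 lower. The share of all tested genes at that threshold is not given here, so this count is a description only. Non-overlap held for 5 of the 10 genes and 43.8% of tested genes. In that second comparison 30.2% of called genes were higher with TPM as deposited, 54.4% with median-of-ratios scaling and 46.2% with quantile normalisation. Without P14 library 3 or P21 library 1, 2 of the 10 genes were called. Of all tested genes, 3822 and 4135 were called in these fits, against 5370 with every library. The 2 steps differed for Nova1 and Rbfox1, both negative, 2 of 10 genes, where 24.3% of tested genes were called, 7.46% positive and 16.8% negative. Without P14 library 3 that was 1 gene and without P21 library 3 it was 4. The shares of all tested genes with unequal steps in these fits are not given here. The moderated F test over the 3 ages called 10 of 10, where 62.6% of tested genes were called. In it Srrm4 (adjusted p = 0.0487) lost its call in most alternatives, with adjusted p up to 0.184, and Ptbp1 (adjusted p = 0.0235) in several, with adjusted p up to 0.103.

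The IP libraries were checked against cell type markers. The summed TPM of 7 excitatory neuron markers was 108% of input in P7 IP, with 3 of the 7 called higher and 1 lower. The sums of other cell types were 5.52% of input for astrocytes, 14.5% for oligodendrocytes, 7.71% for their precursors and 6.54% for microglia. They were 10.8% for endothelial and mural cells, 7.31% for inhibitory neurons and 13.5% for progenitors. No marker stood at 0 in any library. Some means in P7 IP lay under 1 TPM, for 4 of 8 microglial, 4 of 6 progenitor and 3 of 7 oligodendrocyte markers. The same held for 2 of 5 endothelial and mural and 1 of 9 inhibitory neuron markers. Beside the sums, Ptbp1 in P7 IP was 3.43-fold and Srrm4 2.78-fold lower than in input. In such bulk samples fewer cells of a type and less RNA per cell cannot be told apart. Within IP, the excitatory neuron sum went from 1103 to 1335 TPM at P7 up to 3079 to 3275 TPM at P21, with 3 of 7 markers risen and 3 fallen. The astrocyte sum went from 153 to 213 TPM at P7 up to 488 to 639 TPM at P21 with 9 of 10 markers risen. The oligodendrocyte sum went from 32.2 to 36.1 TPM up to 504 to 723 TPM with 7 of 7 risen, and the microglial sum from 9.19 to 13.3 TPM up to 22.9 to 34.9 TPM with 8 of 8 risen. The inhibitory neuron sum went from 50.0 to 59.8 TPM up to 71.9 to 88.2 TPM with 5 of 9 markers risen and 2 fallen. Nova1, Rbfox1 and Rbfox3 rose over the same ages and the other 6 called genes fell, and the part of these cells in the result was not tested.

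Transcripts known as targets of the regulators were read beside them. Dlg4 encodes PSD-95, whose mRNA is destroyed when Ptbp1 or Ptbp2 skips one of its exons. It was measured at 515.0 and 482.4 TPM in input, 623.3, 732.1 and 661.1 TPM in P7 IP, 1269, 1296 and 1198 TPM in P14 IP and 1149, 1125 and 1208 TPM in P21 IP. P7 lay above input, and P14 and P21 above P7. Dlg4 rose by 0.90 ± 0.06 SE from P7 to P14 (limma adjusted p = 1.73e-06), while Ptbp2 fell and Ptbp1 did not pass the test. From P14 to P21 Ptbp2 fell again, and the Dlg4 difference of -0.11 ± 0.06 SE did not pass the test (limma adjusted p = 0.229). Flna encodes the actin crosslinker filamin A, with an exon repressed by Ptbp1, and its levels were 230.7 and 188.3 TPM in input, 42.2, 34.6 and 33.7 TPM in P7 IP and 7.64, 15.7 and 17.8 TPM in P21 IP. It fell by 1.43 ± 0.26 SE from P7 to P21 (limma adjusted p = 0.000715). Rest, the repressor of neuronal genes that Srrm4 switches to a truncated form, was at 1.61 and 1.62 TPM in input and between 0.198 and 0.392 TPM in the 9 IP libraries. Rest thus passed the filter of 1 TPM only through the input libraries, the group where it was high. Its log2 difference at P7 of -1.02 ± 0.11 SE is therefore given as a description and not as a test. All its IP values lay under the 1 TPM added before the log, so a change between ages could hardly have been seen. Which isoforms of these targets were present was not measured here, and a link between the regulators and these targets was not tested.

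Other regulators of neuronal splicing, 23 of 24 listed genes tested, split evenly from P7 to P14, with 8 risen and 8 fallen. Of all tested genes, 26.7% rose and 22.8% fell over that step. From P7 to P21, 9 of the list rose and 11 fell, with a median of -0.07. For all tested genes the shares were 27.3% and 32.6%, and the median was -0.04. Mbnl2, a muscleblind protein that shapes adult exon choices in brain, rose most. It went from 8.28, 12.3 and 14.0 TPM at P7 to 63.9, 56.2 and 58.3 TPM at P14 and 69.2, 66.2 and 73.8 TPM at P21, with P14 above every P7 library. That was a rise of 2.30 ± 0.15 SE from P7 to P14 (limma adjusted p = 1.01e-06), larger than that of any of the 10 genes above. Its paralog Mbnl1 rose by 0.90 ± 0.11 SE (limma adjusted p = 6.01e-05). Msi1, a translational regulator of neural progenitors, fell by 1.05 ± 0.08 SE (limma adjusted p = 1.83e-06), from 24.7 to 28.4 TPM at P7 to 11.2 to 12.7 TPM at P14. Khdrbs2, the STAR family protein SLM1, fell by 0.77 ± 0.08 SE (limma adjusted p = 1.63e-05). From P14 to P21, Msi2 rose by 0.43 ± 0.09 SE (limma adjusted p = 0.00716), and Raver2, a partner of PTB proteins, fell by 0.61 ± 0.11 SE (limma adjusted p = 0.00298), from 10.9 to 12.0 TPM down to 6.27 to 7.54 TPM.

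At P7, 1 gene of that list was higher in IP than in input and 17 were lower with TPM as deposited. Of all tested genes, 18.6% were higher and 51.1% lower. The list had 7 higher and 9 lower with median-of-ratios scaling, and 5 and 16 with quantile normalisation. Khdrbs3, the STAR protein T-STAR, was the gene called higher, at 377.9, 375.9 and 316.6 TPM in IP and 210.8 and 195.8 TPM in input (log2 difference 0.80 ± 0.09 SE, limma adjusted p = 2.12e-05), and it was called higher under both scalings as well. Qk, an RNA-binding protein of glia, differed by -2.48 ± 0.14 SE (limma adjusted p = 1.72e-07) and Msi2 by -2.12 ± 0.10 SE (limma adjusted p = 7.08e-08). For Qk the IP values of 8.56 to 10.2 TPM lay below the inputs of 56.2 and 59.8 TPM.

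More of the general splicing factors fell than rose over the IP ages. Of all tested genes, 27.3% rose and 32.6% fell from P7 to P21, with a median of -0.04. Of 15 SR family genes, 3 rose and 9 fell from P7 to P21, with a median of -0.31. Srsf12 fell most, from 39.9, 41.3 and 48.2 TPM at P7 through 29.7, 32.5 and 31.0 TPM at P14 to 18.8, 17.6 and 20.6 TPM at P21, a change of -1.14 ± 0.08 SE (limma adjusted p = 5.83e-07). Srsf3 fell by 0.98 ± 0.06 SE (limma adjusted p = 3.17e-07), and Srsf9 rose by 0.48 ± 0.06 SE (limma adjusted p = 8.8e-05). Of 25 hnRNP genes, a family in which Ptbp1 is also known as hnRNP I, 4 rose and 15 fell, with a median of -0.37. Hnrnpa1 fell by 1.26 ± 0.07 SE (limma adjusted p = 9.09e-08), from 631.8 to 693.6 TPM at P7 to 255.5 to 290.1 TPM at P21. Hnrnph2 rose by 0.73 ± 0.06 SE (limma adjusted p = 1.03e-06). Under median-of-ratios scaling and quantile normalisation the hnRNP list again had 4 genes risen and 15 fallen, and the SR list 4 and 8, and 3 and 9.

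At P7, 13 of 15 SR genes and 24 of 25 hnRNP genes were lower in IP than in input, with medians of -0.93 and -0.65. Of all tested genes 51.1% were lower, with a median of -0.33. With median-of-ratios scaling, 11 of the SR genes and 13 of the hnRNP genes were lower. Srsf11 stood at 36.8, 40.3 and 38.3 TPM in IP and 180.7 and 187.8 TPM in input (log2 difference -2.23 ± 0.07 SE, limma adjusted p = 1.17e-08). Srrm2, a spliceosome scaffold related to Srrm4, differed by -2.44 ± 0.26 SE (limma adjusted p = 1.22e-05). Among 16 tested of 18 listed genes for mRNA translation and localisation, 6 rose and 3 fell from P7 to P21. Their median was -0.01, beside -0.04 for all tested genes. Cpeb1, which binds the cytoplasmic polyadenylation element, rose by 1.58 ± 0.15 SE (limma adjusted p = 7.01e-06), from 4.39, 7.06 and 4.75 TPM to 16.7, 18.1 and 18.5 TPM. The double-stranded RNA-binding protein Stau1 fell by 0.66 ± 0.06 SE (limma adjusted p = 4.6e-06).

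**Figure D4:**
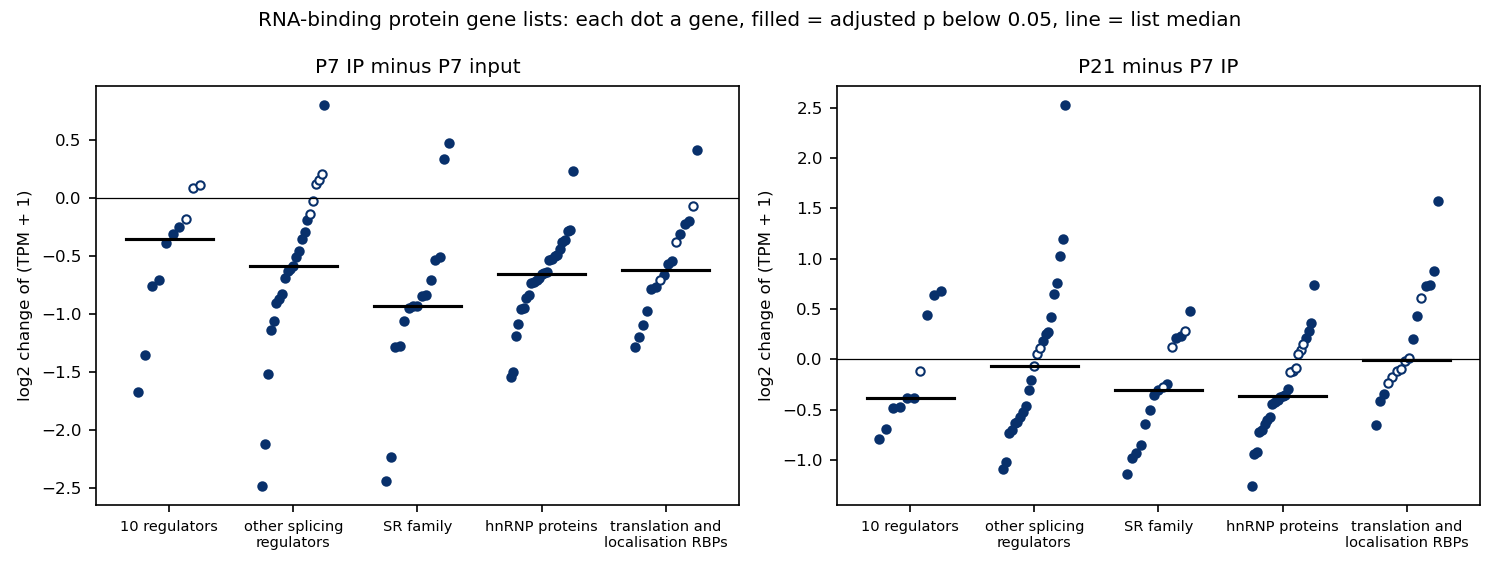
Log2 change of TPM + 1 (vertical axis) of each tested gene in 5 lists of RNA-binding proteins (horizontal axis) for P7 IP minus P7 input and P21 minus P7 IP. Each dot is 1 gene, filled where adjusted p was below 0.05, and the thick lines are list medians. The medians of the other 4 lists lie below that of the 10 regulators for IP minus input, and Mbnl2 is the highest dot for P21 minus P7.

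Across the 11 libraries, the log2 levels of Rbfox2, Ptbp2 and Elavl2 ran in parallel, with Pearson correlations of 0.97, 0.96 and 0.97 for the pairs Rbfox2 and Ptbp2, Ptbp2 and Elavl2, and Rbfox2 and Elavl2. Ptbp1 and Srrm4 correlated at 0.95 and Rbfox1 with Rbfox3 at 0.81. These are descriptions over libraries that share their group, age and scaling, so they carry no p. Among 7859 other genes with a symbol and a mean of at least 10 TPM, the pattern of Ptbp2 was nearest to those of Nfib (0.994) and Pak2 (0.993), and that of Elavl2 to Robo1 (0.995) and Xpr1 (0.994). Srrm4 was nearest to Acadvl (0.996) and Mdm4 (0.994), Ptbp1 to Lrrc45 (0.991) and Clk4 (0.989), and Rbfox2 to Ssr3 and Map4 (0.989 each). Nova1 was nearest to Wipi2 (0.976) and Pdcd4 (0.975). For Rbfox1 the nearest were Nceh1 (0.988) and Tspyl5 (0.987), for Rbfox3 Lin7b (0.956) and Ankrd9 (0.954), and for Elavl4 Zfp426 (0.986) and Dyrk2 (0.984).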

How the data were processed

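Polyadenylated RNA of the 11 libraries was sequenced, and the authors deposited TPM values for 77179 Ensembl gene IDs, with 1 column per library. The submitters' processing notes name the build mm39 and the tools Salmon 1.10.0, fastp 1.0.1 and DESeq2 1.46.0. The role of each, the annotation, the step from transcripts to genes and any use of strand are not stated in the sources at hand. TPM keeps no depth, so the depth is unknown and precision is given by the spread between libraries.

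IDs were matched to symbols for 50886 rows, and all 10 regulators matched. The 19008 genes reaching 1 TPM in 2 or more libraries were fitted as log2(TPM + 1) with limma 3.58.1 in R 4.3.3, with 1 mean per group, 7 residual degrees of freedom, trended empirical Bayes moderation and Benjamini-Hochberg adjustment over all of them. The code was tested on simulated data. Paralog ratios were tested by exact permutation of libraries in Python 3.11.15, with scipy 1.17.1 for the Benjamini-Hochberg adjustment. Reads shared between paralogs may be split by the authors' quantification in ways that cannot be seen here. Promoters came from RefSeq in GRCm38.p6, a build other than that of the deposited values. Figures were drawn with matplotlib 3.10.9.

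The 10 genes and the gene lists were chosen with earlier results of these data known. Named from each list and comparison were up to 2 called genes with the largest rise and up to 2 with the largest fall, all target transcripts, and the 2 genes nearest in pattern to each regulator, which for Nova2 are not reported here. The alternatives were pseudocounts of 0.1 and 5 TPM, no filter, a filter at a mean of 5 TPM, scaling by median of ratios, quantile normalisation, rescaling without ribosomal protein, haemoglobin and mitochondrially encoded genes, untrended moderation, a replicate block, only the groups compared, and each library left out in turn. The limma p-values set a group difference against the spread between libraries within groups, pooled over all groups and moderated over all tested genes. Permutation p-values come from rearranging libraries between groups, and both kinds rest on these libraries alone.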

Additional observations from a re-analysis of the deposited data

Results flagged for a closer look

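For 2 of the 10 regulators the change from P14 to P21 differed from that from P7 to P14. Of all tested genes 24.3% were called in this comparison, 7.46% positive and 16.8% negative, so the count does not set the 10 genes apart. For Nova1, the change from P14 to P21 minus that from P7 to P14 was -0.83 ± 0.12 SE on the log2 scale (limma adjusted p = 0.00112). The gene rose from P7 to P14, and its difference from P14 to P21 did not pass the test. For Rbfox1 the same difference was -0.66 ± 0.16 SE (limma adjusted p = 0.0128), and without P14 library 3 its adjusted p was 0.05. Both steps use the P14 libraries.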

How the results depend on the processing

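Each result was recomputed under the alternatives listed with the processing. For the 10 genes these gave 1163 values with the same direction and side of the threshold, 60 that lost a call, 15 that gained one and 22 that changed sign. The 9 calls between P7 and P21 were kept in all of them. The paralog ratios over the ages were recomputed only with the other pseudocounts and with each library left out, and all 6 kept their side of the threshold there. A mean of at least 5 TPM left 8265 genes called for IP against input, where 13259 were called otherwise, since fewer genes were tested.

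For IP minus input, median-of-ratios scaling gave 0.30 for Nova2, 0.23 for Rbfox1, 0.18 for Rbfox2 and 0.092 for Elavl2, and Rbfox3 was -0.19 with quantile normalisation, -0.018 rescaled without the 3 gene classes and -0.0030 without input library 2 (leaving out 1 library each, up to 0.19). For P14 minus P7, Ptbp1 was 0.017 without P14 library 1, and as low as -0.20 without others. For P21 minus P14, Nova1 was 0.033 with median-of-ratios scaling and 0.019 with quantile normalisation. Rbfox1 was 0.11 and 0.014 with these, and 0.0082, 0.0019 and 0.051 without P14 library 3, P21 library 1 and P21 library 2 (lowest without 1 library, -0.090). For the second step minus the first, Ptbp2 was -0.052, -0.053 and -0.055 without P7 IP library 1, P14 library 1 and P21 library 3 (highest 0.071). Nova2 was -0.0060, -0.024, -0.023 and -0.018 without P7 IP library 3, P14 library 1, P14 library 2 and P21 library 1 (highest 0.087). None of these sign changes concerns a call of the age comparisons, and the cause was not tested.

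Leaving out each library in turn gave 2 to 5 of the 10 genes called from P14 to P21 and 1 to 4 for unequal steps. From P14 to P21 the calls among all tested genes then ranged from 3822 to 5554, against 5370 with every library. For unequal steps such counts of all tested genes are not given for the alternatives, so the counts of the 10 genes there are descriptions. With the replicate number as a replicate block, 4 genes had unequal steps, against 2 without it: Elavl4 (adjusted p = 0.041) and Srrm4 (adjusted p = 0.0444) were added. Same-numbered IP libraries deviated together only weakly (correlations 0.012 to 0.177), not every library correlated best with its own number, and they are taken to share only a number. The limits are the unknown depth, 2 input libraries of different genotype, input at P7 only, and a scale that is relative within each library.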
